A study of Mus musculus with 5 samples.

Results

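Acetylated histones mark many stretches of DNA that lie between genes, and 1155 such regions were described here in T_M cells, which are CD8+ T cells driven toward a memory state in culture. The regions were found by merging the peaks of 5 ChIPseq libraries wherever peaks shared at least 1 bp, which gave 18410 merged regions. Of these, 10423 had a peak in at least 2 libraries and are called consensus regions, and 10418 were left once the start of chromosome 9, before 3.1 Mb, was set aside. The 1155 intergenic regions are those that overlapped no annotated gene body and lay more than 3 kb and at most 50 kb from the nearest transcription start site of a protein-coding gene. The remaining consensus regions were 5756 coding promoters, which lay within 3 kb of such a start site, 2858 regions within genes but outside promoters, and 649 intergenic regions beyond 50 kb. Position and presence in any pair of libraries chose the regions, without regard to genotype, but a library with a longer list could bring in more of them. A peak in WT 1 and WT 2 alone brought in 165. TPdh-/- libraries alone brought in 3 by all 3, 3 by TPdh-/- 2 and 3, and 1 by TPdh-/- 1 and 3. Comparisons of presence between genotypes are therefore not independent of this choice.

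The study compared T_M cells of WT mice with T_M cells of TPdh-/- mice, to learn how loss of the pyruvate dehydrogenase complex (PDC) in T cells alters histone acetylation. The labels call the groups wildtype and PDH_Mutant. TPdh-/- mice carried a conditional allele of Pdha1, the X-linked gene of the E1 alpha subunit, together with a Cre transgene driven by the Cd4 promoter, which acts in both CD4+ and CD8+ T cells because CD8+ T cells pass through a stage that expresses Cd4. Adult mice of both sexes were used. The study's methods give the culture as activation of OT-I cells, whose transgenic T cell receptor sees an ovalbumin peptide, followed by IL-15, the cytokine that favours memory cells. The labels do not name that receptor. The labels name 2 WT and 3 TPdh-/- libraries, numbered within each group, and do not say whether each came from its own mouse, so p-values measure only the spread between these libraries. Both groups are smaller than the number per condition that the study gives for ChIPseq, and any other libraries were not analysed here. The antibody was described as one against acetylated lysine of histones, and the labels add lysine 18 of no named histone.

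Histone acetylation is laid down by acetyltransferases that use acetyl-CoA, the product of PDC in mitochondria and of ATP-citrate lyase and acetyl-CoA synthetase outside them. Acetylated nucleosomes sit at active promoters and at active distal elements such as enhancers, where transcription factors bind and which can act on a gene from many kilobases away. In CD8+ T cells such distal elements are known for their dependence on RUNX, ETS, T-box, TCF and AP-1 factors. The gene nearest to a region is not always the gene it acts on, and a peak is not a test of enhancer activity.

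The peak lists held 15962 peaks in WT 1, 8859 in WT 2, 4920 in TPdh-/- 1, 5419 in TPdh-/- 2 and 9418 in TPdh-/- 3, and the reads behind them were not used here, so the depth of each library is unknown. TPdh-/- 3 thus had a longer list than WT 2. Of 12 genes that define T cells, 11 and 9 had a promoter peak in WT and 5, 7 and 9 in TPdh-/-. Of 20 markers of B cells, myeloid cells, NK cells and CD4 T cells, 5 had one in WT 1 (Foxp3, Cd4, Zbtb7b, Gata3 and Eomes, the last of which CD8+ memory T cells also express), 2 in WT 2 (Foxp3 and Cd4) and 0 in each TPdh-/- library. Cd8a itself had a promoter peak in WT 1 alone, while Cd8b1 had one in all 5. Of 16 markers of other tissues, 1 (Cdh1, an epithelial cadherin) had a promoter peak in TPdh-/- 3 and 0 had one in each of the other libraries. The part of other cell types in the differences below was not tested, and fewer acetylated cells and less acetylation per cell cannot be told apart in a bulk library.

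The sequences that follow are the central 200 bases of 8 of the regions, read from the plus strand of GRCm38 and shown to set a CpG-rich region beside the regions near T cell genes and a region of WT alone. Capitals mark matches, on either strand, to any of 13 short motifs whose letters are given with the motif counts, and all other bases are in lower case. Adjacent matches run together, as the KLF and CRE matches do in the Zfp869 region and the NFAT and E-box matches in the Ccr7 region. The windows are chr8:69716460-69716659 (Zfp869), chr16:8823467-8823666 (1810013L24Rik), chr2:11636351-11636550 (Il2ra), chr6:129609001-129609200 (Klrk1), chr3:115673770-115673969 (S1pr1), chr11:99170843-99171042 (Ccr7), chr1:161766591-161766790 (Fasl) and chr10:19578236-19578435 (Ifngr1).
Zfp869: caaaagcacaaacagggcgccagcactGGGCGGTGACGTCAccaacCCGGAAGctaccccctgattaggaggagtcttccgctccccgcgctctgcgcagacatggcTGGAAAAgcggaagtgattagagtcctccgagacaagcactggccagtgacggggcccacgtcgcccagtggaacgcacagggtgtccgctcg
1810013L24Rik: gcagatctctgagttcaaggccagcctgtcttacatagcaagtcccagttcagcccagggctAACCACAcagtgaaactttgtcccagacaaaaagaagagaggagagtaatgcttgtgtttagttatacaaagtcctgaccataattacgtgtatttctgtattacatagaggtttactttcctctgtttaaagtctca
Il2ra: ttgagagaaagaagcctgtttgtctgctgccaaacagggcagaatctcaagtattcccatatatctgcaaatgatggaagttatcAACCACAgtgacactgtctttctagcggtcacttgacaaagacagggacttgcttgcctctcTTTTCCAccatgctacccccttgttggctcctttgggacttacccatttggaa
Klrk1: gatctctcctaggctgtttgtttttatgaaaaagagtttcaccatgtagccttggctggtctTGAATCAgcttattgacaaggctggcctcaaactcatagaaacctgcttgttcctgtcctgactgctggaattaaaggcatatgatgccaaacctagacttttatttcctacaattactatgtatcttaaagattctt
S1pr1: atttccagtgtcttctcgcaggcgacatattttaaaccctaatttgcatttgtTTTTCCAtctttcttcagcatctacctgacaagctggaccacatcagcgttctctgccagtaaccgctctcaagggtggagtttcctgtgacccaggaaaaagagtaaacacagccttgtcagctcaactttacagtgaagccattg
Ccr7: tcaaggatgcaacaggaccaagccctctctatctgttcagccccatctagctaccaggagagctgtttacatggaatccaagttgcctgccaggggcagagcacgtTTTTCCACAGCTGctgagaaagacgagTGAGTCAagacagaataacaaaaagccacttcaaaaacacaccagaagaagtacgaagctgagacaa
Fasl: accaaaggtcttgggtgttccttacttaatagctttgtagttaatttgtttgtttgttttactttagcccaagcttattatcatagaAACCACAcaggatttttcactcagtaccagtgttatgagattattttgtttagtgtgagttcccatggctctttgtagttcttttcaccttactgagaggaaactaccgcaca
Ifngr1: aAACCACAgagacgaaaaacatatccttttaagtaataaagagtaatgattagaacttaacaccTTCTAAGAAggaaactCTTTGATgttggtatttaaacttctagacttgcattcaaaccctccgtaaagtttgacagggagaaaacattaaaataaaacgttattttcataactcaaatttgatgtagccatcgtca
The Zfp869 window, from the strongest region of all, had a GC content of 63% with 16 CpG, and held ETS, CRE, KLF and NFAT matches. The window near 1810013L24Rik, from the strongest region of WT alone, had 41.5% GC, 1 CpG and a single RUNX match. RUNX matches also lay in the windows near Il2ra, Fasl and Ifngr1, and AP-1 matches in those near Klrk1 and Ccr7. The printed windows are not typical in this, since every one of them holds a match. The central 200 bases of the regions near Nipbl, Gzmb, Nfkb1, Ctla4, Klf3, Cd69, Ifng and Ccl5, not printed, held no match. The Klrk1 window held 0 CpG.

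Fewer of the intergenic regions carried a peak in each TPdh-/- library than in either WT library, although WT 2 and TPdh-/- 3 lay close together. A peak was present at 1133 regions in WT 1, 919 in WT 2, 495 in TPdh-/- 1, 509 in TPdh-/- 2 and 907 in TPdh-/- 3. These are 98.1%, 79.6%, 42.9%, 44.1% and 78.5% of the regions, where 98.5%, 77.4%, 44.5%, 47.0% and 83.5% of all consensus regions had a peak in the same libraries. TPdh-/- 1 and TPdh-/- 2 were the low libraries. The mean was 1026 ± 151 regions in WT (SD, n = 2) and 637 ± 234 in TPdh-/- (SD, n = 3), a difference of 0.74 in mean log2 number (exact permutation test, two-sided, p = 0.2, the smallest that 2 against 3 libraries can give). Without WT 1 the log2 difference was 0.42, and it was 1.06 with regions in at least 1 library and 0.46 with regions in at least 3. When every list was cut to the strongest peaks, as many as the shortest list holds, it was -0.058 (exact permutation test, p = 0.8), so its direction changed with the length of the lists.

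Measured against the other consensus regions, the share of intergenic regions with a peak was slightly higher in WT. The log2 of their share with a peak, less that of the other consensus regions, was higher in WT by 0.11 (SD 0.03, exact permutation test, two-sided, p = 0.2). That difference was 0.01 without WT 2 and -0.13 with lists of equal length (exact permutation test, p = 0.4). In WT 1 both shares stood near their ceiling, at 98.1% of the intergenic and 98.5% of the other consensus regions. Only in WT 2 was the intergenic share the higher, at 79.6% against 77.1%. As a share of all peaks in a list, peaks in the intergenic regions were lowest in WT 1 and highest in WT 2. The shares were 7.10% in WT 1, 10.4% in WT 2, and 10.1%, 9.39% and 9.64% in TPdh-/- 1, 2 and 3. The mean was 8.74% ± 2.32 in WT (SD, n = 2) and 9.71% ± 0.349 in TPdh-/- (SD, n = 3), and the WT values lie on either side of those of TPdh-/-. Thus the lower number in TPdh-/- was not shown to be particular to intergenic regions.

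**Figure D1:**
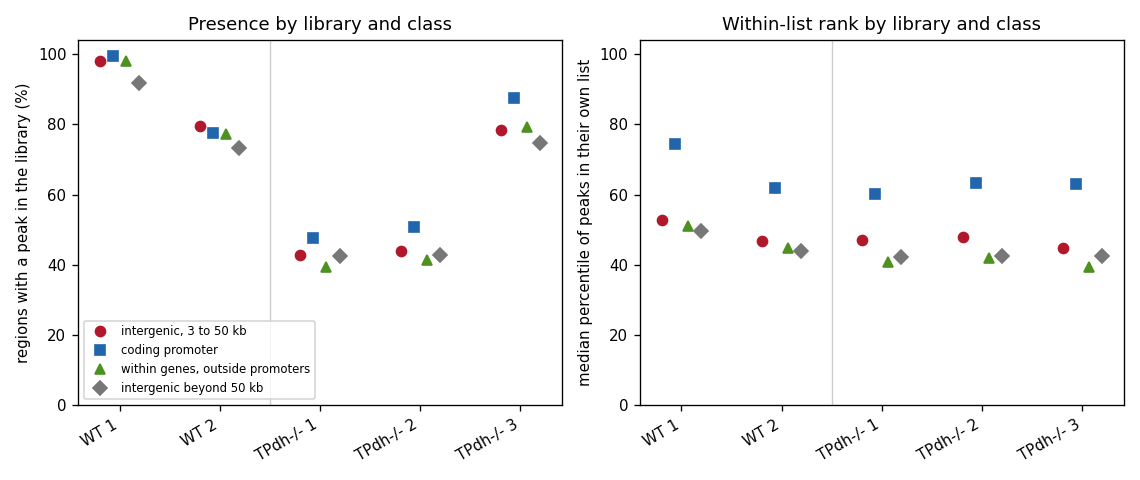
Share of regions with a peak (left, in %) and median percentile of their peaks by −log10 q within the library's own list (right), for each of the 5 libraries and 4 classes of consensus region, 1 point a class. The intergenic regions 3 to 50 kb away (red circles) stand at 79.6% in WT 2 and 78.5% in TPdh-/- 3, where the other 3 classes are higher in TPdh-/- 3 than in WT 2, and lie below coding promoters (blue squares) in rank in 5 of 5 libraries.

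The set of libraries that held a peak differed from region to region. All 5 libraries had a peak at 320 regions (27.7%), where the share over all consensus regions was 29.7%. Both WT and no TPdh-/- library had one at 165 regions (14.3%, against 10.5% of all consensus regions), a pattern shown by 7.82% of coding promoters, 13.9% of regions within genes and 12.0% of intergenic regions beyond 50 kb. The share of WT alone was thus close to that of regions within genes and above that of promoters, which was not tested because regions are not replicates. The reverse pattern, a peak in all 3 TPdh-/- and no WT library, was found at 3 regions (0.260%, against 0.0480% of all consensus regions).

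These counts turned on single libraries. WT 1 and TPdh-/- 3 alone shared 131 regions (11.3%, against 13.3% of all consensus regions), a pair that crosses the genotypes. Both WT libraries and neither TPdh-/- 1 nor TPdh-/- 2 had a peak at 356 regions (30.8%, against 26.4%), of which 191 also had one in TPdh-/- 3. Without TPdh-/- 3, WT alone held 357 regions, and without WT 1, TPdh-/- alone held 13. With lists of equal length the counts were 17 for WT alone and 21 for TPdh-/- alone. Of all 1155 regions, 349 had a peak in exactly 2 libraries, 279 in 3 and 207 in 4.

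Regions without a TPdh-/- peak were weak in the WT lists. The percentile of a region is the rank of its peak by −log10 q within the list of its library, and the 165 regions of WT alone had a median percentile of 31.1 in WT 1 and 19.9 in WT 2. Among regions below the 10th percentile of the WT 1 list, 10.6% had a peak in TPdh-/- 1, 8.51% in TPdh-/- 2 and 44.7% in TPdh-/- 3. Among those above its 90th percentile, the shares were 85.6%, 89.4% and 100%. WT 2, of the same genotype as WT 1, rose over the same range from 51.1% to 97.1%, close to TPdh-/- 3. Presence therefore followed the rank in WT 1 within both genotypes, and the part of list length in the regions of WT alone was not tested. The rule of at least 2 libraries left out WT 1 peaks found in no other library, which can raise these shares.

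**Figure D2:**
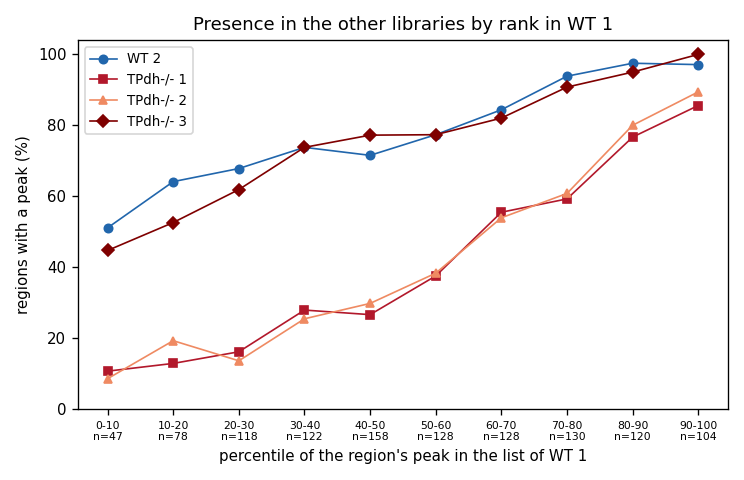
Share of intergenic regions with a peak in each of 4 libraries (in %), by the percentile of the region's peak in the list of WT 1, with the number of regions (n) under each bin. All 4 curves climb, TPdh-/- 1 and TPdh-/- 2 from 10.6% and 8.51% to 85.6% and 89.4%, and WT 2 runs beside TPdh-/- 3. By the rule, WT 1 peaks found in no other library are left out.

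At the 320 regions with a peak in all 5 libraries, the median percentile was 80.1 in WT 1, 71.9 in WT 2, 56.3 in TPdh-/- 1, 58.1 in TPdh-/- 2 and 68.3 in TPdh-/- 3. Both WT libraries stood above all 3 TPdh-/- libraries, with a difference of 15.1 percentile points between group means (exact permutation test, two-sided, p = 0.2, the smallest possible). A percentile is relative to the length of its list, and with lists of equal length the difference was -1.81 points (exact permutation test, p = 1). The list of TPdh-/- 3 held 9418 peaks and that of WT 2 held 8859, and the part of list length in the difference was not tested. Taken 1 by 1, both WT percentiles exceeded the 3 TPdh-/- percentiles at 106 of the 320 regions (33.1%, against 29.5% of all consensus regions with 5 peaks), and were below them at 4 (1.25%, against 1.45%). With lists of equal length 23 regions had both WT percentiles above, and leaving out WT 2 gave 214. Over the 320 regions, Spearman's rho between the −log10 q of WT 1 and WT 2 was 0.72, that of WT 1 and TPdh-/- 3 was 0.76, and that of TPdh-/- 1 and TPdh-/- 2 was 0.55. These are correlations across regions, which share each library's depth.

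Compared with promoters, the intergenic regions ranked low. Their median percentile was 52.7 in WT 1, 46.8 in WT 2, and 47.0, 48.1 and 44.8 in TPdh-/- 1, 2 and 3, where coding promoters stood at 74.4, 61.8, 60.1, 63.3 and 63.1. The mean difference was -16.6 points (SD 3.39, lower in 5 of 5 libraries, exact sign-flip permutation test, two-sided, adjusted p = 0.063, the smallest that 5 libraries allow). They ranked 4.30 points above regions within genes (SD 2.32, higher in 5 of 5 libraries, exact permutation test, adjusted p = 0.063) and 3.73 points above intergenic regions beyond 50 kb (SD 1.38, higher in 5 of 5, adjusted p = 0.063 in the same exact test). The last of these was -10.5 points when peaks needed a −log10 q of 5 or more.

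In presence, the intergenic regions differed from coding promoters by -3.97 percentage points on average (SD 4.37, exact permutation test, adjusted p = 0.1875), from regions within genes by 1.58 points (SD 1.83, same test, adjusted p = 0.1875) and from regions beyond 50 kb by 3.57 points (SD 2.75, higher in 5 of 5 libraries, adjusted p = 0.1875). None of these passed the threshold that 5 libraries allow after adjustment. Peaks in the regions were a median of 1347 bp wide in WT 1, 1055 in WT 2, and 988, 960 and 1089 in TPdh-/- 1, 2 and 3. They were wider than promoter peaks by 0.12 on the log2 scale (SD 0.07, wider in 5 of 5 libraries, exact permutation test, adjusted p = 0.1875). The fold enrichment of the peaks over the background estimated by the peak caller had medians of 2.22 and 2.36 in WT and 2.47, 2.43 and 2.30 in TPdh-/-, where coding promoters had 2.84, 2.80, 2.84, 2.78 and 2.74.

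The regions covered 1.85 Mb in all, with a median width of 1474 bp and a range from 608 to 4766 bp. The median distance to the nearest coding start site was 17601 bp, with quartiles of 9537 and 29873 bp. Relative to that gene's direction, 811 regions (70.2%) lay upstream and 344 downstream. The rule leaves out the gene body itself, and its part in the upstream share was not tested. Per megabase of genome that met the same rule of position, there were 2.81 regions at 3 to 5 kb, 3.04 at 5 to 10 kb, 3.05 at 10 to 20 kb, 2.47 at 20 to 30 kb, 2.41 at 30 to 40 kb and 2.17 at 40 to 50 kb. Density thus stayed between 2.17 and 3.05 over the whole range. Regions were found on 20 chromosomes, most on chromosome 11 with 105 and chromosome 1 with 97, and none on chromosome Y.

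The 6 strongest regions shared by all libraries had a GC content between 45.2% and 71.4% in their central 500 bp. The strongest lay at chr8:69715982-69717138, 5258 bp upstream of Zfp869, a zinc finger gene, with percentiles of 99.9 and 99.6 in WT and 99.6, 99.8 and 99.6 in TPdh-/-. Its fold enrichment was 4.90, 4.47, 4.72, 5.01 and 4.14 in the same order, and the genotypes overlap. RefSeq, unlike the GENCODE annotation used for the rule, places starts of Zfp869 and of Gm51532, a long noncoding RNA, inside it. The next were 15236 bp upstream of Cbx8, a Polycomb protein (chr11:119056205-119057394), and 17689 bp downstream of the start of Anp32e, a chaperone that removes the histone variant H2A.Z (chr3:95950490-95951815). Both had percentiles of at least 97.8 in every library. Regions near Ostc, an oligosaccharyltransferase subunit, near Rab11fip4, a Rab11 effector, and near Pom121l2, a nucleoporin-like gene, completed the 6 strongest. The Rab11fip4 region held a start of Gm11205, a long noncoding RNA, and the Pom121l2 region a tRNA gene that RefSeq names n-TMcat8. Thus 3 of the 6 strongest regions held a start site or tRNA gene outside the set used to define them.

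The strongest regions of WT alone were far weaker. The strongest of them, at chr16:8823205-8823929, 6171 bp upstream of 1810013L24Rik, had percentiles of 74.5 and 86.2 and folds of 3.09 and 3.59 in WT 1 and WT 2. The next lay 6857 bp upstream of the GENCODE start of Nipbl, the cohesin loader, with percentiles of 80.6 and 66.3, and RefSeq places it inside the Nipbl gene. The region 4816 bp upstream of Ahnak, a large scaffold protein that takes part in calcium signalling of T cells, followed with 77.9 and 62.4. Those near Alkal1, a ligand of ALK-family receptors, Rras2, a RAS-related GTPase, and Gna12, a G protein subunit, had mean percentiles between 63.2 and 67.7. The promoters of 1810013L24Rik and Nipbl had a peak in all 5 libraries, so the call of WT alone belonged to the distal region and not to the gene's promoter. Ahnak had a promoter peak in both WT libraries only, Rras2 in WT 1 only, and Alkal1 and Gna12 in none.

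All 3 regions of TPdh-/- alone were weak. The region 3916 bp upstream of Scgb3a1, a secretoglobin, had percentiles of 31.1, 28.3 and 14.8 in TPdh-/- 1, 2 and 3. That 19817 bp upstream of Alkbh8, a tRNA methyltransferase, had 9.70, 42.9 and 6.36, and 92.4% of its bases are masked as repeats. It lies at chr9:3311820-3315323, near the stretch of chromosome 9 that was set aside. The region 21415 bp upstream of Bach2, a repressor that restrains effector differentiation, had 1.30, 4.71 and 16.8, while the Bach2 promoter had a peak in all 5 libraries.

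Genes of T cell biology were often the nearest gene of a region. Over the annotation, 1006 of 21938 protein-coding genes (4.59%) were nearest to at least 1 region. Of 150 genes on 5 lists of T cell genes, 46 (30.7%) were, with 65 regions between them. The gene lists were chosen with earlier results of these data known, so this contrast is not independent of the data. Since genes differ in the intergenic sequence around them, regions were also counted per megabase of sequence that met the rule of position, which gave 15.4 for the T cell genes and 2.70 over all genes. Of these 65 regions, 22 (33.8%) had a peak in all 5 libraries, against 27.7% of the 1155 regions and 29.7% of all consensus regions. WT alone held 6 (9.23%), against 14.3% and 10.5%. These differences were not tested. The shares of 27.7% and 14.3% over the 1155 regions apply to each list below as well. Of the 65 regions, a peak was present at 63 in WT 1, 56 in WT 2, 33 in TPdh-/- 1, 31 in TPdh-/- 2 and 58 in TPdh-/- 3. Near T cell genes TPdh-/- 3 thus stood just above WT 2, where over all 1155 regions it stood just below. Of the 46 genes, 11 had no promoter peak in any library.

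**Figure D3:**
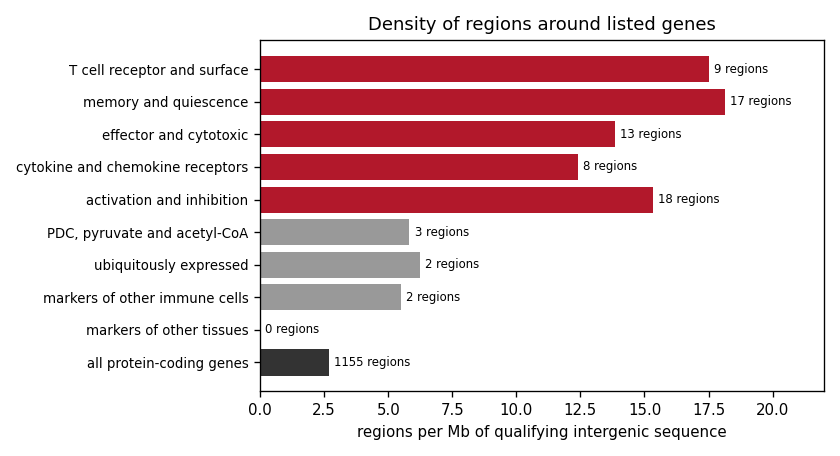
Number of intergenic regions per megabase of qualifying intergenic sequence around the genes of each list (bars, axis from 0), with the number of regions beside each bar. The gene lists were chosen with earlier results of these data known. The 5 T cell lists (red) lie between 12.4 and 18.1 regions per Mb, against 2.70 over all protein-coding genes (black). The comparison lists also exceed that background, at 6.23 for ubiquitously expressed genes, 5.83 for PDC genes and 5.48 for markers of other immune cells, except the markers of other tissues at 0.

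The effector and cytotoxic list had 7 of its 30 genes nearest to a region, with 13 regions. All 5 libraries had a peak at 6 (46.2%, against 27.7% of the 1155 regions and 29.7% of all consensus regions). WT alone held 2 (15.4%, against 14.3% and 10.5%). Fasl, the death ligand of cytotoxic T cells, was the gene with the most regions of all, although their number was 3 without WT 1, 3 with lists of equal length, 2 with start sites of all gene types and 0 at a −log10 q of 5 or more. Its 5 regions stretched from 20640 bp on the downstream side to 20401 bp upstream, across chr1:161765663-161767718 and 4 others. The farthest downstream, which holds a start of the long noncoding RNA Gm31869 in RefSeq, had a peak in all 5 libraries, with percentiles of 59.1 and 67.5 in WT and 50.0, 61.6 and 71.6 in TPdh-/-. These overlap between the genotypes. The nearest upstream region, 5214 bp away, had a peak in WT 1 and WT 2 alone at percentiles 54.0 and 12.0, and the other 2 upstream regions lacked a peak in TPdh-/- 2 only.

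Gzmb, which encodes the cytotoxic protease granzyme B, had a region 33989 bp upstream with percentiles of 94.6 and 75.8 in WT and 84.5, 81.6 and 86.1 in TPdh-/-. Klrk1, the gene of the activating receptor NKG2D, had one 12518 bp downstream of its start with 85.5 and 83.3 in WT and 89.2, 75.4 and 85.6 in TPdh-/-. At both genes the TPdh-/- values lay within or around those of WT. Ifng, the gene of interferon gamma, had a region 21450 bp upstream with 57.1 and 71.7 in WT and 64.8, 42.7 and 27.1 in TPdh-/-, and its promoter had a peak in WT 1 alone. Runx3, a factor that sets the CD8+ lineage, had 2 regions. The farther one, 15962 bp upstream, had 41.3 and 56.3 in WT and 5.26, 16.3 and 38.4 in TPdh-/-, so both WT values were higher. Its folds were 1.60, 1.78, 1.75, 1.72 and 1.72 in the same order, and there the genotypes overlap. Tbx21, the gene of the effector regulator T-bet, had a region 11432 bp upstream in both WT libraries and TPdh-/- 3. Ccl5, a chemokine made by memory CD8+ T cells, had 1 region in all 5 libraries and 1 in WT alone.

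The memory and quiescence list had 10 of its 25 genes nearest to a region, with 17 regions. All 5 libraries had a peak at 6 (35.3%, against 27.7% of the 1155 regions and 29.7% of all consensus regions). WT alone held 3 (17.6%, against 14.3% and 10.5%) and TPdh-/- alone held 1, that of Bach2. S1pr1, the receptor that lets lymphocytes leave lymphoid organs, had 4 regions, or 3 without WT 1 and 2 with lists of equal length. The strongest, at chr3:115672786-115674953 and 40119 bp downstream of the start, had percentiles of 86.4 and 92.4 in WT and 53.1, 57.9 and 76.4 in TPdh-/-, with both WT values above all others. Its folds were 1.88, 2.10, 2.01, 1.96 and 1.94, which do not separate the genotypes. The other 3 regions lacked a peak in TPdh-/- 1 and TPdh-/- 2.

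Btg2 and Btg1 encode antiproliferative factors that help keep T cells quiescent. The Btg2 region 13759 bp upstream had 93.5 and 94.0 in WT and 95.1, 79.0 and 82.5 in TPdh-/-, the highest mean of any listed gene. The Btg1 region 45760 bp downstream had 83.7 and 83.7 in WT and 17.4, 15.6 and 62.6 in TPdh-/-, and a second one 6581 bp upstream was in WT alone. The genotypes thus overlap at the upstream Btg2 region and do not overlap at the downstream Btg1 region. Another Btg2 region, 12163 bp downstream, had a peak in WT 1, TPdh-/- 2 and TPdh-/- 3 alone, at percentiles 16.0, 23.5 and 4.08. Ccr7, the receptor that guides T cells into lymph nodes, had a region 14924 bp upstream with 74.3 and 88.1 in WT and 34.3, 74.7 and 61.7 in TPdh-/-, and a faint one of WT alone. Klf3, a repressor of the Krüppel-like family, had the widest of all the regions, at 4766 bp, with 78.7 and 54.4 in WT and 72.7, 68.5 and 69.2 in TPdh-/-. Tcf7, the gene of TCF-1 and a regulator of memory precursors, had 2 regions 16087 and 35691 bp upstream, both without a peak in TPdh-/- 1. Il2rb, the receptor chain that IL-2 and IL-15 share, had 1 region in WT alone, at percentiles 20.8 and 0.463, within the Il2rb gene of RefSeq. Il7r, the gene of the IL-7 receptor, had 1 region in WT 1 and TPdh-/- 3, and Dapl1 had 1 in all 5 libraries.

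**Figure D4:**
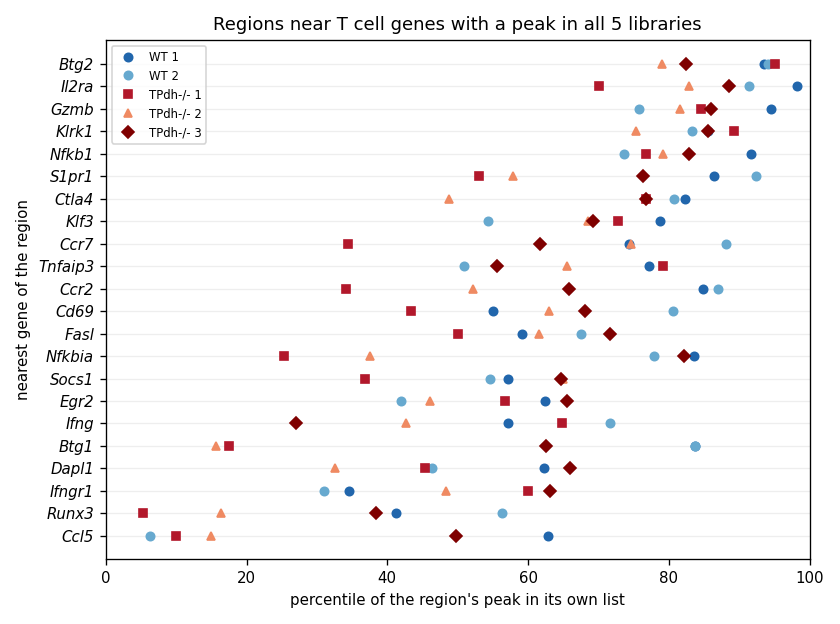
Percentile by −log10 q, within each library's own list, of the 22 regions near genes of the T cell lists that had a peak in all 5 libraries, 1 symbol a library, ordered by mean percentile. WT symbols (blue) lie above all TPdh-/- symbols (red shades) at 6 of the 22, those of Il2ra, S1pr1, Ctla4, Ccr2, Btg1 and Runx3, and below them at that of Ifngr1. The 6 are 27.3%, against 33.1% of the 320 intergenic regions and 29.5% of all consensus regions with 5 peaks.

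The activation, costimulation and inhibition list had the most genes nearest to a region, 13 of 32, with 18 regions, 5 in all 5 libraries (27.8%, against 29.7% of all consensus regions) and 1 in WT alone (5.56%, against 10.5%). Nfkb1, an NF-kB subunit, had a region 26430 bp upstream with 91.7 and 73.7 in WT and 76.8, 79.2 and 82.8 in TPdh-/-. Nfkbia, the inhibitor of NF-kB, had 2 regions, and the one 44690 bp downstream had 83.6 and 78.0 in WT and 25.3, 37.6 and 82.2 in TPdh-/-. Here TPdh-/- 3 lay with WT while the other two TPdh-/- libraries lay far below. Tnfaip3, which encodes the NF-kB feedback inhibitor A20, had a region 45612 bp upstream with 77.2 and 51.0 in WT and 79.1, 65.5 and 55.6 in TPdh-/-. Ctla4, the inhibitory receptor, had 2 regions downstream, and the one in all 5 libraries had 82.3 and 80.7 in WT and 76.7, 48.8 and 76.8 in TPdh-/-. Egr2, an early response gene of the T cell receptor, had a region in all 5 libraries with overlapping values. The early response genes Nr4a1, Nr4a3, Fos, Fosl2 and Egr3 and the phosphatase genes Dusp2 and Dusp5 had regions in 2 to 4 libraries, none of them in WT alone. The 1 region of WT alone lay 6900 bp upstream of Tnfrsf1b, which encodes the second TNF receptor, at percentiles 23.7 and 13.3.

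The cytokine and chemokine list had 8 of 33 genes nearest to 1 region each, 4 in all 5 libraries (50%, against 29.7% of all consensus regions) and 0 in WT alone (against 10.5%). Il2ra, the gene of the high-affinity IL-2 receptor chain CD25, had a region at chr2:11635200-11637701, 5106 bp upstream, with 98.2 and 91.3 in WT and 70.1, 82.9 and 88.5 in TPdh-/-. Its folds were 2.28, 2.11, 2.23, 2.30 and 2.24, so the fold did not follow the percentile. Ifngr1, a subunit of the interferon gamma receptor, was the only gene of the T cell lists whose region, among the 22 in all 5 libraries, ranked higher in all 3 TPdh-/- libraries, with 34.6 and 31.0 in WT and 60.0, 48.4 and 63.1 in TPdh-/- at 12169 bp upstream. Ccr2, a chemokine receptor, had a region 32299 bp upstream with 84.9 and 87.0 in WT and 34.1, 52.2 and 65.8 in TPdh-/-. Socs1, a feedback inhibitor of cytokine signalling, had 57.2 and 54.6 in WT and 36.8, 64.9 and 64.7 in TPdh-/-. The remaining genes were Socs3, Cish, Cxcr4 and Cxcr5, with peaks in 2 to 4 libraries.

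The T cell receptor and surface list had 8 of 30 genes nearest to a region, with 9 regions, 1 of them in all 5 libraries (11.1%, against 29.7% of all consensus regions) and 0 in WT alone (against 10.5%). All 9 had a peak in TPdh-/- 3 and 3 each in TPdh-/- 1 and TPdh-/- 2. The region in all 5 libraries lay 7790 bp upstream of Cd69, an early activation marker that holds T cells in tissues, with 55.0 and 80.6 in WT and 43.3, 62.9 and 68.1 in TPdh-/-. The others lay near Lat and Sla, adaptors of T cell receptor signalling, and near the surface molecules Cd2, Cd6, Cd8b1, Slamf6 and Spn.

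Most comparison lists outside the 5 T cell lists also exceeded the background of 4.59% of protein-coding genes, on few regions. Of 24 genes of PDC and of pyruvate and acetyl-CoA metabolism, 3 (12.5%) were nearest to a region. Pdk1, the kinase that inhibits PDC, had one 5736 bp upstream in all 5 libraries, with 86.1 and 68.0 in WT and 16.3, 51.6 and 28.5 in TPdh-/-, so both WT values were higher. Its promoter had a peak in both WT libraries and no TPdh-/- library. Ldha, a lactate dehydrogenase subunit, had a region in WT alone at percentiles 22.3 and 31.7, and Pdp1, the phosphatase that reactivates PDC, had one in WT 1, WT 2 and TPdh-/- 3. Of 18 ubiquitously expressed genes, Actb and Hspa8 (11.1%) had 1 each. Of the 20 markers of B cells, myeloid cells, NK cells and CD4 T cells, 2 (10%) were nearest to a region. Cd79a, a B cell receptor subunit, had 1 in both WT libraries, TPdh-/- 1 and TPdh-/- 3, and Klrb1c, an NK cell receptor, had 1 in WT 1 and TPdh-/- 3. Neither had a promoter peak in any library, and 0 of 16 genes of other tissues were nearest to a region. Per megabase of qualifying sequence these lists held 5.83 regions (PDC), 6.23 (ubiquitous), 5.48 (other immune cells) and 0 (other tissues), against 2.70 over all genes and 15.4 for the T cell genes.

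Most genes had a single region. Of the 1006 nearest genes, 879 had 1, 109 had 2, 15 had 3, 2 had 4 and 1 had 5. Beside Fasl and S1pr1, the genes with most were Blm, a DNA helicase, with 4, and Ptma, an abundant nuclear protein, Zfp217, a zinc finger gene, and Tlr1, a Toll-like receptor, with 3 each. At Blm, the regions 12418 bp downstream and 46982 bp upstream were in all 5 libraries, and the 2 between them lacked a peak in TPdh-/- 1 and TPdh-/- 2. Of the Ptma regions 2 were in all 5 libraries, and 1 of these had 67% GC and 61 CpG in its central 500 bp. Tlr1 had 2 regions in all 5 libraries, although its promoter had a peak in WT 1 alone.

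A region's nearest gene often carried a promoter peak too. Where a region had a peak, its nearest gene had one at the promoter in the same library in 66.0% of cases in WT 1, 44.9% in WT 2, and 27.5%, 32.6% and 46.1% in TPdh-/- 1, 2 and 3. Over all coding genes the shares were 40.8%, 23.6%, 14.6%, 15.8% and 26.7%. Where the region had no peak in a library, its nearest gene had a promoter peak there in 40.9%, 35.6%, 28.6%, 30.2% and 46.4% of cases. In the 3 TPdh-/- libraries the share was therefore nearly the same whether or not the region had a peak, while in WT 1 it was 40.9% over only the 22 regions that lacked one.

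In base composition the regions resembled intergenic sequence rather than promoters. Their central 500 bp had a median GC content of 48.0%, against 60.8% for coding promoters, 47.2% for regions within genes, 45.0% for intergenic regions beyond 50 kb and 45.2% for windows 5 kb to either side. CpG-rich windows, with over 55% GC and an observed to expected CpG ratio above 0.65, made up 33 of the regions (2.86%), 58.3% of coding promoters and 0.910% of the flanking windows. These 33 had median percentiles of 81.8 and 68.9 in WT and 58.6, 52.3 and 76.4 in TPdh-/-, and 1 of them was in WT alone, where 164 of the 1122 other regions were. A peak was present at 97.0% and 84.8% of the 33 in WT 1 and 2, and at 39.4%, 63.6% and 97.0% in TPdh-/- 1, 2 and 3. In the same order, the 1122 other regions stood at 98.1%, 79.4%, 43.0%, 43.5% and 78.0%. Repeats covered a median of 14.2% of the windows, and over 90% of 4 whole regions.

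The letters of 6 motifs, RUNX, AP-1, IRF, E-box, STAT and GATA, were more common in the regions than both in promoters and in the flanks. The RUNX letters TGTGGTT or their reverse complement were found in 232 windows (20.1%), 6.93% of coding promoters, 20.8% of regions within genes, 19.1% of regions beyond 50 kb and 12.9% of flanking windows. The AP-1 letters TGANTCA, where N is any base, were in 18.1% of the regions, 7.92% of promoters, 17.04% of regions within genes, 18.5% of regions beyond 50 kb and 14.2% of flanks. Both motifs were thus about as common in the other regions outside promoters. IRF letters (GAAANNGAA) were in 23.1% of the regions, 13.0% of promoters and 16.0% of flanks, E-box letters (CAGCTG) in 28.4%, 22.1% and 21.7%, STAT letters (TTCNNNGAA) in 18.7%, 11.4% and 14.9%, and GATA letters (AGATAAG) in 7.10%, 2.90% and 6.29%. Regions within genes and beyond 50 kb held IRF letters in 22.5% and 25.1%, E-box in 27.6% and 22.5%, STAT in 19.5% and 21.1%, and GATA in 6.72% and 8.94%. Apart from E-box letters beyond 50 kb, these too were about as common in the other regions outside promoters.

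For 4 motifs the regions lay between promoters and flanks. ETS letters (CCGGAAG) were in 7.97% of the regions, 24.1% of promoters and 1.52% of flanks, and KLF letters (GGGCGG) in 15.6%, 63.4% and 7.76%. CRE letters (TGACGTCA) were in 1.13%, 3.63% and 0.564%, and CTCF letters (AGGGGGC) in 7.01%, 16.5% and 6.37%. The other 3 motifs were less common than in the flanks. T-box letters (AGGTGTG) were in 11.9% of the regions, 7.16% of promoters and 13.4% of flanks, NFAT letters (TGGAAAA) in 11.9%, 8.08% and 13.8%, and TCF letters (ATCAAAG) in 7.10%, 3.47% and 8.15%. Over all 10418 consensus regions, windows of the same length held RUNX letters in 13.0%, AP-1 in 12.2%, ETS in 16.1%, KLF in 41.6%, IRF in 17.5%, E-box in 24.3%, STAT in 15.0%, T-box in 9.07%, NFAT in 10.3%, TCF in 5.67%, GATA in 4.79%, CTCF in 12.0% and CRE in 2.35%. Between presence patterns the shares differed little for RUNX, at 21.9% of regions in all 5 libraries and 22.4% of those of WT alone, and more for ETS, at 11.3% and 4.24%. The AP-1, CRE, STAT and E-box letters are their own reverse complements, and matches to different motifs may share bases. A match is a description of letters and not evidence that a factor binds.

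**Figure D5:**
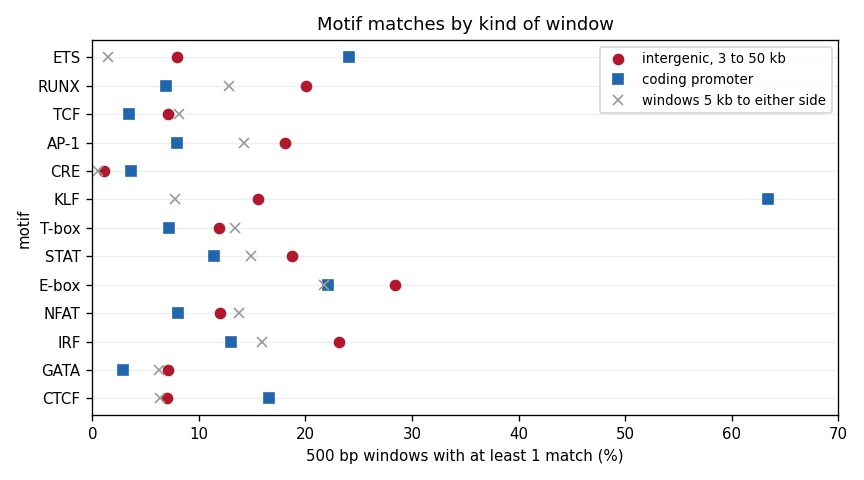
Share of 500 bp windows with at least 1 match, on either strand, to each of 13 motifs (in %), for the intergenic regions (red circles), coding promoters (blue squares) and windows 5 kb to either side of the regions (grey crosses). Of the 3 sets, the intergenic regions hold the highest share of RUNX, AP-1, IRF, E-box, STAT and GATA matches, promoters that of KLF, ETS, CTCF and CRE, and flanks that of T-box, NFAT and TCF.

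The annotation sets how intergenic these regions are. In RefSeq, 252 of them (21.8%) overlap a gene body that the GENCODE annotation does not have there, 192 of them a long noncoding RNA, 42 a protein-coding gene and 19 a tRNA. A RefSeq transcript start lies inside 78 (6.75%), of which 28 (35.9%) had a peak in all 5 libraries, against 27.7% of all the regions. The region near Spn, for example, holds a RefSeq start of Spn itself. Starts of GENCODE transcripts other than those used for the rule lie within 1 kb of 33 regions.

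The limits of distance passed through a continuum. Just inside the lower limit lay regions 3019 bp from Kcnip2, in 3 libraries, and 3032 bp from Tmsb10, in 5, and just outside it lay regions 2977 bp from Tram1, in 2, and 2975 bp from Il7r, in 3. Just inside the upper limit lay regions 49957 bp from Kdm7a, in 5 libraries, and 49305 bp from Fli1, in 4, and just outside it lay regions 50001 bp from Smndc1, in 2, and 50022 bp from Gm9887, in 4.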

How the data were processed

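ChIPseq of acetylated histones was measured in T_M cells of 2 WT and 3 TPdh-/- libraries. Per the study's methods and the submitters' processing notes, the authors aligned reads to GRCm38/mm10 with BWA 0.7.17, used SAMtools 1.15.1 to keep reads that map uniquely and drop reads from blacklisted stretches, and ran MACS2 2.2.6 in broad mode on each library by itself. In the deposited lists each peak has a fold enrichment, which is a linear ratio. Each also has the authors' −log10 p-value, −log10 q-value and an integer score, of which the score and the −log10 p-value were not used. Read counts were not used here, so depth is unknown and no counting interval is given. The authors' analysis with DiffBind, which needs reads, was not repeated.

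Peaks were merged and placed with Python 3.11.15, numpy 2.4.6, scipy 1.17.1, pysam 0.24.0 and samtools 1.23.1, and figures were drawn with matplotlib 3.10.9. bedtools 2.31.1 gave the same 18410 merged regions. Genes came from GENCODE M21 (GRCm38, 55413 genes, 141730 transcripts), whose chromosomes match the names in the lists. Distance was the gap from the region's edge to the nearest start of a protein-coding transcript. Sequences and added annotation came from the RefSeq GRCm38.p6 assembly. Where several peaks of a library fell in a region, the one with the highest −log10 q stood for it. Flanking windows lay 5000 bp from the region's centre, and 3 with unknown bases were left out. The merging and classes were tested on simulated lists.

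Groups were compared by exact permutation over the 10 divisions into 2 and 3 libraries, and classes by exact sign-flip permutation over 5 libraries with Benjamini-Hochberg adjustment over 3 classes. Two-sided p-values are 2 times the smaller tail. Genes named are those of the 6 strongest regions in all 5 libraries, the 6 strongest of WT alone, all of TPdh-/- alone, the 6 genes with most regions, up to 30 listed genes, and the regions nearest to each limit; further listed genes are named only to complete a count. The regions, gene lists and motifs were chosen with earlier results of these data known. Shared replicate numbers were not taken as pairs. Alternatives were peaks with −log10 q from 2 or from 5 upward, equal list lengths, regions in at least 1 or 3 libraries, an overlap of 50% of the shorter peak, protein-coding gene bodies alone, region midpoints, start sites of all gene types, distances of 5 to 25 kb, each library left out, and a block on the replicate number. RNAseq, ATACseq and ChIP PCR were not analysed here, and 1 marker and 1 sequence are not reported here.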

Additional observations from a re-analysis of the deposited data

How the results depend on the processing

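The comparisons of WT with TPdh-/- were the least stable, and none could pass 0.05 with 2 against 3 libraries. With lists of equal length, the log2 difference in regions with a peak was -0.058, that relative to the other consensus regions -0.13 and that in rank -1.81 points, each with its sign turned. Leaving out each library in turn gave 0.42 to 0.94, 0.01 to 0.12 and 11.0 to 19.6 points, with the lowest 0.42 without WT 1, and 0.05 and 0.01 for the second measure without WT 1 and WT 2. With the replicate block, over the 2 pairs that share a number, they were 1.02, 0.10 and 18.8 points with no test. Deviations of same-numbered libraries from their group means, over 320 regions, correlated at -0.003 for number 1 and 0.05 for number 2. With 2 WT libraries the WT deviations mirror each other. These values therefore cannot show whether same-numbered libraries share a day or batch, which the labels do not give.

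The number of regions was 259 at a −log10 q of at least 5, 561 with lists of equal length, 2075 with regions in at least 1 library and 698 at 5 to 25 kb, and 827 to 1134 when a library was left out. Regions in all 5 libraries were 211 at a −log10 q of at least 2, 27 at 5, 190 with lists of equal length and 192 at 5 to 25 kb, and 323 to 424 without a library. Regions of WT alone were 54 at a −log10 q of at least 5, 17 with lists of equal length, 103 at 5 to 25 kb and 0 by construction with regions in at least 3 libraries, and 181 to 357 without a TPdh-/- library, the 357 without TPdh-/- 3. Regions of TPdh-/- alone were 0 at a −log10 q of at least 2 and of at least 5 and 21 with lists of equal length, and 3 to 13 without a library, with 13 without WT 1 and 5 each without WT 2 and TPdh-/- 1.

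Against other classes, presence relative to regions beyond 50 kb was -5.71 points at a −log10 q of at least 5 and -0.043 with regions in at least 3 libraries, and rank -10.5 points at a −log10 q of at least 5. Peak width, which differed least, changed sign against regions within genes to 0.020 with regions in at least 1 library and 0.014 with start sites of all gene types (-0.027 to 0.0026 without a library). It did so against regions beyond 50 kb to -0.029 and -0.082 at a −log10 q of at least 2 and 5, -0.042 with lists of equal length and -0.053 with regions in at least 3 libraries (-0.013 to 0.011 without a library). The mean share of nearest genes with a promoter peak, 43.4%, was 16.1% at a −log10 q of at least 5, 27.8% with lists of equal length and 17.7% with start sites of all gene types. Genes of the T cell lists nearest to a region were 12 at a −log10 q of at least 5 and 29 with lists of equal length. The cause of these changes was not tested. The direction against coding promoters was the same under every alternative run, in rank, presence and width. Unknown depth limits every absence of a peak, which says only that none was called.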
